A study of Drosophila melanogaster with 24 samples.

Results

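Of the 14542 gene loci measured in this study, 101 carried a name made only of CG and a number, reached a mean of at least 1 FPKM over the 8 groups and were at least 1.3-fold higher with paraquat than without it in each of 4 RNAi backgrounds. FPKM is the number of sequenced fragments scaled by transcript length and by the mapped fragments of the library, and every ratio was taken after 0.1 FPKM had been added to both values. A CG number is the provisional name that the Drosophila genome annotation gives to a gene that has not been named after a function or a phenotype. The 101 loci were selected on the paraquat ratios themselves, so their rise with paraquat is given as a description and was not tested. They made up 3.03% of the 3333 CG-numbered loci with a mean of at least 1 FPKM. Among all 7748 loci at that level, 218 or 2.81% met the same rule, 117 of them with other names. The opposite rule, at least 1.3-fold lower in each background, was met by 209 loci or 2.70%, of which 57 were CG-numbered.

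The RNA came from S2 cells, a cultured Drosophila line with features of embryonic blood cells. All cells had received dsRNA for 4 days, against GFP as the control, against *Sin3A*, against *lid* or against both, and 4 of the 8 groups were also exposed to 8.3 mM paraquat for 24 h. Each deposited value stands for the 3 replicates of a group combined, which leaves the spread between replicates unknown. The study gives an approximate depth of coverage, but with no read counts used here the number of reads behind a single value is unknown. The FPKM values of a group summed to between 749891 and 814105. Of 8 blood cell markers in the tables, 7 reached a mean of 1 FPKM and *Hml* did not, whereas of 6 markers of other tissues only the neuronal gene *elav* did. The *lid* transcript was at 37.2, 39.1, 35.8 and 43.0 FPKM in the 4 groups without *lid* dsRNA and at 14.9, 16.9, 15.4 and 17.0 FPKM in the 4 groups with it. The *Sin3A* transcript was at 67.9, 62.5, 62.0 and 66.5 FPKM without *Sin3A* dsRNA and at 61.7, 58.0, 59.7 and 58.8 FPKM with it, a difference in the direction of the labels but small. The groups are therefore named here by the dsRNA the cells received, and the directions given for *Sin3A* dsRNA rest on the labels. The study reports an efficient reduction of SIN3 protein in such cells by western blot, which is not part of these data.

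Paraquat is a redox-cycling compound that takes electrons from cellular carriers and passes them to oxygen, which yields superoxide and hydrogen peroxide. Fly cells answer such stress with detoxifying enzymes, metal-handling proteins, thiol-repair enzymes and changes in carbohydrate and lipid metabolism. SIN3, the product of *Sin3A*, is the scaffold of a histone deacetylase complex, and LID, the product of *lid*, is a lysine demethylase of histone H3 that can join this complex. The study asked how the pair affects transcription with and without oxidative stress.

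The 101 loci were mostly of low abundance. Their mean FPKM had a median of 6.18, beside 21.2 for all CG-numbered loci at 1 FPKM or more, and 13 of them had a mean under 2 FPKM, 31 from 2 to under 5, 37 from 5 to under 20, and 20 at 20 or above. The median FPKM over the loci was 4.38 in GFP dsRNA cells, 3.78 in *Sin3A* dsRNA cells, 4.32 in *lid* dsRNA cells and 5.02 in dual dsRNA cells without paraquat. With paraquat it was 7.03, 8.46, 7.31 and 10.6 FPKM in the same order. The highest of the 8 values lay in stressed dual dsRNA cells for 58 of the 101 loci, where 16.7% of all 7748 loci and 62 of the 117 other loci that met the rule had theirs. It lay in stressed GFP dsRNA cells for 21 loci and in stressed *Sin3A* and stressed *lid* dsRNA cells for 11 each. In 62 of the 101 loci all 4 stressed values lay above all 4 unstressed ones, a pattern seen in 6.56% of all loci. The rule itself places the highest value in a stressed group and fixes most of the separation, so nothing is read from either count against all loci.

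**Figure D1:**
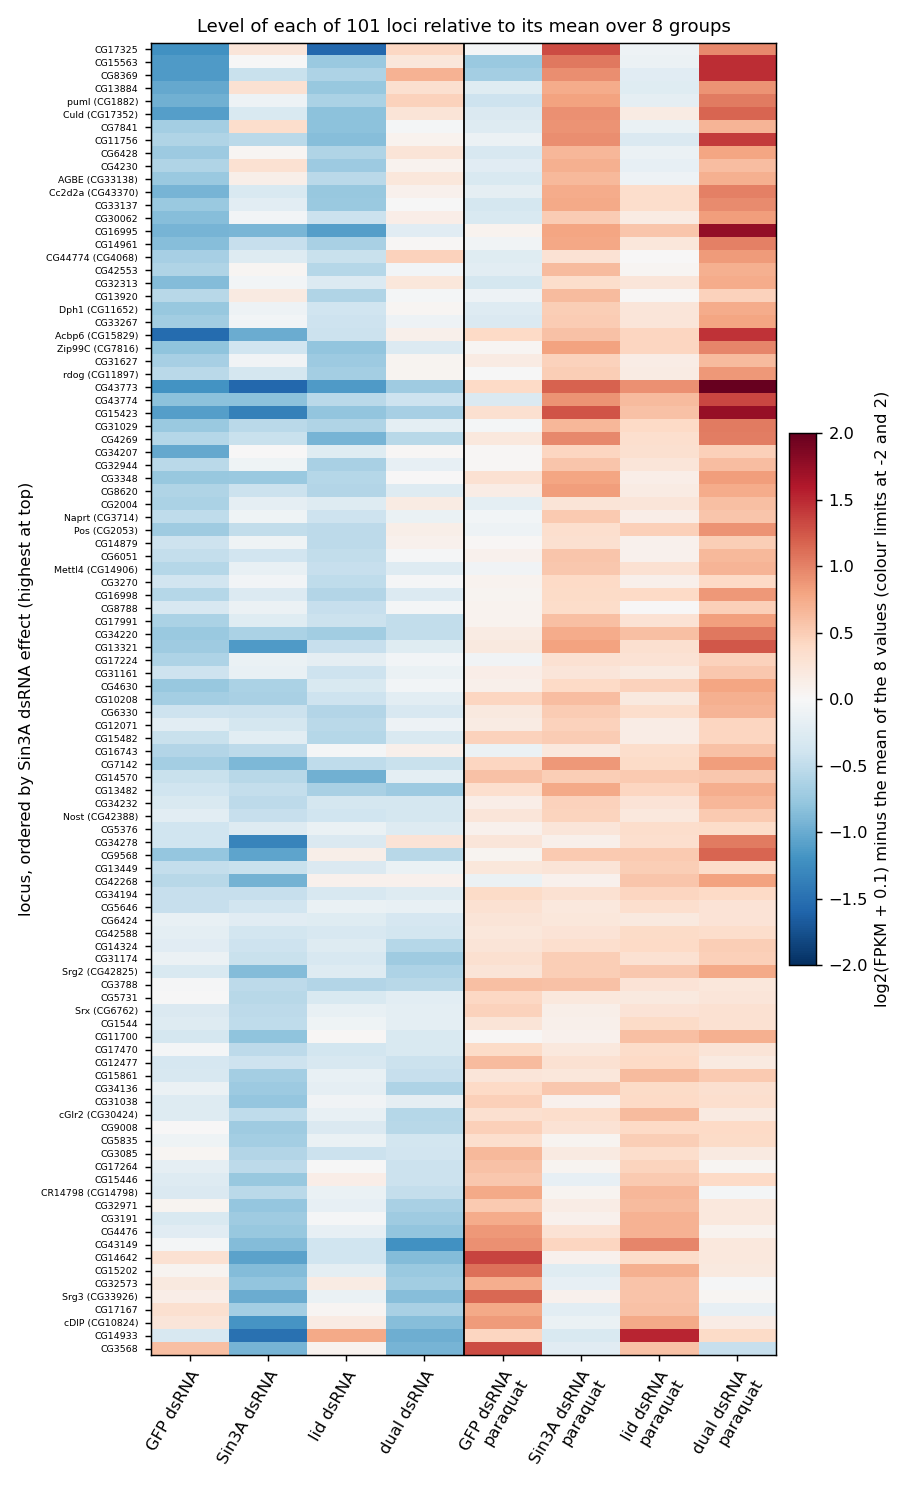
Level of each of the 101 loci (rows) in the 8 groups (columns) as log2(FPKM + 0.1) minus the mean of that locus over the groups, ordered by the fitted effect of *Sin3A* dsRNA. Red is above and blue below the locus mean, and the stressed groups stand to the right of the line. The upper rows were reddest in stressed *Sin3A* and dual dsRNA cells and the lowest rows in stressed GFP or *lid* dsRNA cells.

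The paraquat ratio was not the same in the 4 backgrounds. Its median over the 101 loci was 1.49 in GFP dsRNA cells (quartiles 1.36 and 1.77), 1.79 in *Sin3A* dsRNA cells (1.52 and 2.23), 1.60 in *lid* dsRNA cells (1.47 and 1.81) and 1.72 in dual dsRNA cells (1.47 and 2.01). Over all 7748 loci the medians were 0.976, 0.980, 1.00 and 0.989 in the same order. GFP dsRNA cells held the lowest of the 4 ratios for 55 loci, *lid* dsRNA cells for 24, dual dsRNA cells for 13 and *Sin3A* dsRNA cells for 9. They also held it most often over all loci, for 2590 of 7748, and for 67 of the 117 other loci that met the rule. The ratio was larger in *Sin3A* than in GFP dsRNA cells for 77 loci, larger in *lid* than in GFP dsRNA cells for 67, and larger in dual than in GFP dsRNA cells for 71. These last counts have no share over all loci beside them, and nothing is read from them. The 117 loci with other names that met the same rule had medians of 1.54, 1.85, 1.76 and 1.78, in the same order of backgrounds. Because the rule used these ratios, none of these differences was tested.

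**Figure D2:**
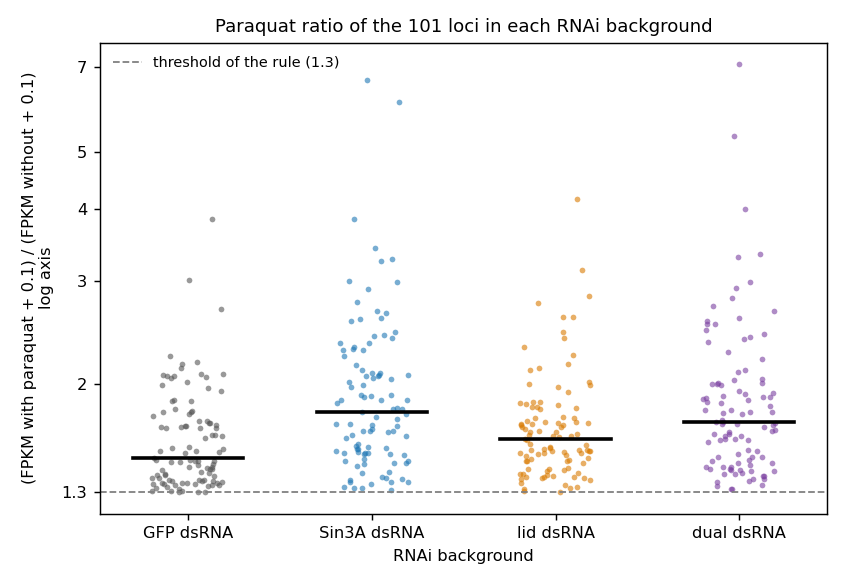
Paraquat ratio of each of the 101 loci (points) in the 4 RNAi backgrounds, on a log axis, with the median as a bar and the threshold of 1.3 as a dashed line. The medians were 1.49, 1.79, 1.60 and 1.72 from left to right, and the points above 5 belong to *CG43773* and *CG15423*.

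Few of the loci rose far in every background. The lowest of the 4 ratios had a median of 1.41 and the highest a median of 2.00 over the 101 loci. A ratio of at least 2 in some background was seen for 49 loci, whereas 2 loci reached it in all 4, *CG43773* and *CG15423*. At least 1.5 in all 4 was reached by 36 loci, and 49 loci had a ratio under 1.4 somewhere. Just inside the threshold lay *CG15446*, *CG12071* and *CG33137*, with lowest ratios of 1.3009, 1.3011 and 1.3035. Just outside lay *CG8191*, *CG32302* and *CG15343*, with lowest ratios of 1.2973, 1.2939 and 1.2912. The step at the threshold is thus far smaller than the difference between backgrounds within one locus, which on the log2 scale ran from 0.06 to 1.32 with a median of 0.39.

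The pair with the highest lowest ratios, *CG43773* and *CG15423*, lies side by side with another of the 101 loci, *CG43774*, on chromosome arm 2L, between 4006040 and 4009090 of the dm3 genome build. *CG43773* was at 4.95 FPKM in GFP, 3.81 in *Sin3A*, 5.17 in *lid* and 6.97 in dual dsRNA cells, and with paraquat at 15.1, 26.0, 21.8 and 50.0 FPKM. *CG15423* was at 6.72, 5.62, 8.38 and 9.13 FPKM without paraquat and at 18.2, 34.9, 22.0 and 49.1 FPKM with it, in the same order. *CG43774* was at 3.77, 3.78, 4.61 and 5.03 FPKM without and at 5.47, 12.6, 10.5 and 17.0 FPKM with paraquat. In all 3 loci the stressed values lay above every unstressed value, stressed dual dsRNA cells were highest and stressed GFP dsRNA cells were the lowest of the stressed groups.

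The paraquat ratio of *CG43773* was 3.01 in GFP dsRNA cells, 6.66 in *Sin3A*, 4.16 in *lid* and 7.09 in dual dsRNA cells. For *CG15423* the ratios were 2.69, 6.11, 2.61 and 5.33, and for *CG43774* they were 1.44, 3.28, 2.24 and 3.34. The level in stressed dual dsRNA cells exceeded that in unstressed GFP dsRNA cells 9.92-fold for *CG43773*, 7.21-fold for *CG15423* and 4.42-fold for *CG43774*. With 1.23, 1.23 and 1.21 on the log2 scale the 3 loci also had the second, the third and the fourth widest spread between backgrounds of the 101 loci. The gaps between their listed spans were 1083 and 668 bp, and none of the 3 overlapped another listed locus. Each has a single exon in the dm6 annotation, with coding lengths of 321 bp for *CG15423*, 225 bp for *CG43773* and 285 bp for *CG43774*.

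The loci on either side of these 3 were barely transcribed or did not follow them. *CG15422*, next on the left, was also higher with paraquat in all backgrounds, with ratios from 1.36 to 2.98, but its mean of 0.949 FPKM kept it below the filter. *CG34176* and *CG43797*, farther left, had means of 0.904 and 0.997 FPKM, also below the filter. The ratios of *CG34176* ran from 1.22 to 3.06, so it too was higher with paraquat in all backgrounds. Those of *CG43797* ran from 0.987 to 1.98. On the right the cell adhesion gene *ed*, at a mean of 7.22 FPKM, had ratios from 0.935 to 1.10.

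**Figure D3:**
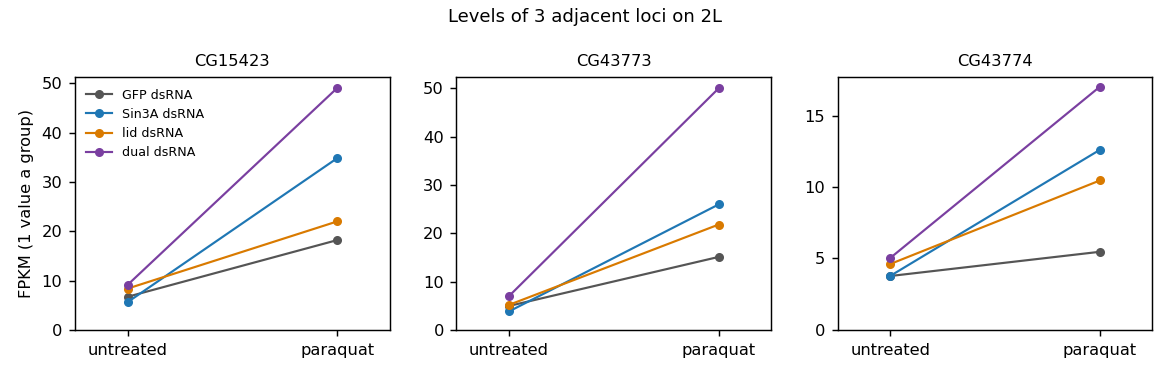
FPKM of *CG15423*, *CG43773* and *CG43774* without and with paraquat, 1 value a group, with a line for each dsRNA and each panel on its own axis from 0. The 4 lines start close together and fan out with paraquat, to 49.1, 50.0 and 17.0 FPKM in dual dsRNA cells.

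The other 8 loci whose lowest paraquat ratio ranked highest differed widely in level. *Zip99C* (*CG7816*), a zinc transporter family member and the most abundant of the 101, was at 219, 292, 222 and 318 FPKM in GFP, *Sin3A*, *lid* and dual dsRNA cells and at 393, 668, 513 and 757 FPKM with paraquat. All of its stressed values lay above all unstressed ones, with ratios of 1.79, 2.29, 2.31 and 2.38.

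*Culd* (*CG17352*), a membrane protein with CUB and LDL receptor class A domains, was at 2.84, 5.02, 3.46 and 7.43 FPKM and with paraquat at 5.08, 11.7, 6.99 and 14.0 FPKM. Its values with and without paraquat overlapped across backgrounds, because unstressed dual dsRNA cells lay above stressed GFP and *lid* dsRNA cells. *Acbp6* (*CG15829*), of the acyl-CoA binding protein family, was at 0.389, 0.611, 0.951 and 1.43 FPKM and with paraquat at 1.78, 2.03, 1.81 and 3.77 FPKM. It differed from most of the loci in that its ratio was largest in GFP dsRNA cells, 3.84, and smallest in *lid* dsRNA cells, 1.82.

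The 5 others have no symbol beyond their CG number in the annotation. *CG34220* was at 4.97, 5.38, 5.14 and 5.90 FPKM and with paraquat at 9.38, 14.0, 12.8 and 17.4 FPKM. *CG7142* was at 6.66, 5.70, 7.51 and 7.89 FPKM and with paraquat at 14.5, 19.7, 14.1 and 19.3 FPKM. In both loci the 4 unstressed values lay close together and well below the stressed ones. *CG4476* was at 2.54, 1.72, 2.64 and 1.68 FPKM and with paraquat at 5.50, 3.67, 4.89 and 3.11 FPKM, and *CG43149* was at 1.03, 0.538, 0.778 and 0.402 FPKM and with paraquat at 2.09, 1.47, 2.19 and 1.24 FPKM. In these loci the groups with *Sin3A* dsRNA were the lower ones both with and without paraquat. *CG16995* stayed under 1 FPKM in all unstressed groups and reached 0.969, 1.67, 1.39 and 3.37 FPKM with paraquat.

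Among the 101 loci, 17 now carry a symbol of their own, several of them enzymes. *AGBE* (*CG33138*), the glycogen branching enzyme, was at 82.8, 150.2, 95.3 and 162 FPKM in GFP, *Sin3A*, *lid* and dual dsRNA cells and at 113, 218, 130.1 and 227 FPKM with paraquat. Its level thus separated into groups with and without *Sin3A* dsRNA more widely than into stressed and unstressed groups, with unstressed *Sin3A* dsRNA cells above stressed GFP dsRNA cells. *Naprt* (*CG3714*), a nicotinate phosphoribosyltransferase of NAD synthesis, was at 47.9, 64.0, 50.8 and 61.8 FPKM and with paraquat at 65.2, 97.6, 75.0 and 99.5 FPKM. Here every stressed value lay above every unstressed one, though stressed GFP dsRNA cells only just.

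The gene *puml* (*CG1882*), a hydrolase linked to lipid storage, was at 25.5, 46.3, 32.0 and 68.4 FPKM and with paraquat at 37.5, 86.8, 44.0 and 102 FPKM. *Mettl4* (*CG14906*), a methyltransferase of the METTL family, was at 43.2, 57.7, 46.5 and 54.0 FPKM and with paraquat at 61.4, 93.1, 79.1 and 103 FPKM. *Dph1* (*CG11652*), which acts in the synthesis of the modified histidine diphthamide on a translation factor, was at 32.6, 51.0, 41.6 and 56.6 FPKM and with paraquat at 46.0, 77.7, 64.9 and 92.0 FPKM. In all 3 enzymes stressed dual dsRNA cells were highest and unstressed GFP dsRNA cells lowest.

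*Srx* (*CG6762*), sulfiredoxin, which restores over-oxidized peroxiredoxins, was the one thiol-repair enzyme among the symbols. It was at 10.2, 8.65, 11.2 and 10.8 FPKM and with paraquat at 17.1, 13.5, 15.0 and 15.3 FPKM. Its stressed values lay above all unstressed ones, and its ratio was largest in GFP dsRNA cells at 1.67 and smallest in *lid* dsRNA cells at 1.34. The ABC transporter gene *rdog* (*CG11897*) was at 6.73, 7.69, 6.09 and 10.2 FPKM and with paraquat at 9.86, 14.0, 11.1 and 18.1 FPKM.

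A few further loci are annotated with metabolic processes by the study. *CG17224*, listed under pyrimidine metabolism, was at 62.7, 87.6, 84.6 and 92.9 FPKM and with paraquat at 91.0, 119, 117 and 132 FPKM. *CG6330*, in the same list, was at 12.5, 12.4, 11.0 and 13.4 FPKM and with paraquat at 19.1, 23.8, 21.4 and 26.8 FPKM. *CG6330* thus differed little between dsRNAs before stress, whereas *CG17224* was lowest in GFP dsRNA cells with and without paraquat. *CG1544*, listed under hexose metabolism, was at 15.4, 12.9, 17.2 and 15.9 FPKM and with paraquat at 21.9, 19.6, 24.0 and 22.7 FPKM.

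The symbols also include 3 genes of the innate response to foreign nucleic acids. *cGlr2* (*CG30424*), a receptor of the cGAS-like family that acts upstream of STING, was at 1.72, 1.43, 1.86 and 1.36 FPKM and with paraquat at 2.62, 2.66, 3.25 and 2.36 FPKM. *Srg3* (*CG33926*), named as a STING-regulated gene, was at 12.0, 5.47, 9.91 and 6.01 FPKM and with paraquat at 24.3, 11.7, 16.2 and 11.2 FPKM. *Srg2* (*CG42825*), named likewise, was at 2.21, 1.47, 2.28 and 1.77 FPKM and with paraquat at 3.30, 3.92, 4.06 and 4.74 FPKM. *Srg3* was highest in stressed GFP dsRNA cells and *Srg2* in stressed dual dsRNA cells. All 8 groups had received dsRNA, so a level without dsRNA is not part of these values.

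The remaining symbols belong to loci of mixed function. *cDIP* (*CG10824*), the common Dpr-interacting protein of the nervous system, was at 6.65, 2.41, 6.25 and 3.06 FPKM and with paraquat at 10.2, 5.09, 9.56 and 6.24 FPKM. *Cc2d2a* (*CG43370*), a protein of the ciliary transition zone, was at 5.22, 8.15, 5.89 and 10.7 FPKM and with paraquat at 8.87, 16.9, 12.8 and 20.4 FPKM. The pair responded in opposite ways to *Sin3A* dsRNA. *Nost* (*CG42388*), the fly nostrin, had ratios from 1.37 to 1.88, and *Pos* (*CG2053*) from 1.53 to 2.01.

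**Figure D4:**
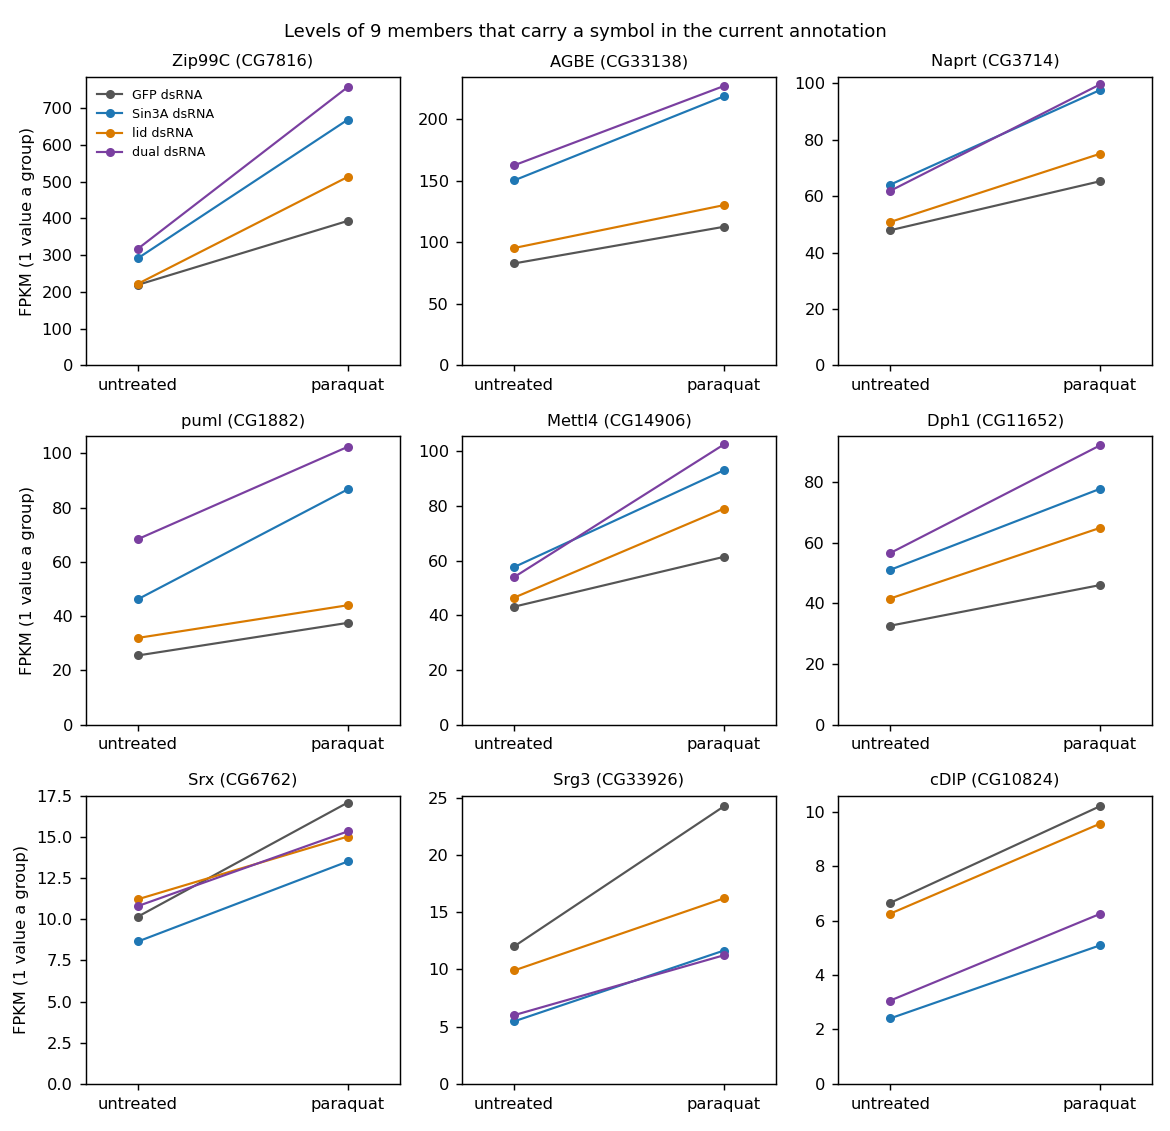
FPKM of 9 of the 17 loci with a symbol of their own, without and with paraquat, 1 value a group, each panel on its own axis from 0. In *Zip99C*, *AGBE*, *Naprt*, *puml*, *Mettl4* and *Dph1* the lines of *Sin3A* and dual dsRNA cells run above that of GFP dsRNA cells, in *Srg3* and *cDIP* they run below it, and in *Srx* the lines cross.

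Outside this cluster the paraquat ratio varied most between backgrounds in *CG9568* and *CG13321*. *CG9568* had the widest spread of the 101 loci, with ratios of 1.78 in GFP, 2.99 in *Sin3A*, 1.32 in *lid* and 3.30 in dual dsRNA cells, at levels from 0.474 to 2.56 FPKM. *CG13321*, the fifth widest, was at 4.66, 3.44, 5.57 and 6.46 FPKM and with paraquat at 8.78, 13.5, 9.62 and 18.3 FPKM. In both loci *Sin3A* dsRNA cells were the lowest of the unstressed groups and stressed dual dsRNA cells the highest of all. At the other end, *CG2004* had the narrowest spread, 0.06 on the log2 scale, with ratios between 1.35 and 1.42.

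The rule did not use the contrast between cells with and without a dsRNA, although it drew on the same 8 values of each locus. A model with additive terms for paraquat and for each dsRNA was fitted with limma to the 8 group values of log2(FPKM + 0.1) of all 7748 loci, with Benjamini-Hochberg adjustment over all of them. Its error is the departure of 8 values from additive effects, with 4 residual degrees of freedom per locus before moderation, and is not the spread between replicates. It includes the differences between paraquat ratios, which the rule bounds, and can be smaller or larger than a replicate error.

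More of the 101 loci were higher than lower with *Sin3A* dsRNA. At an adjusted p under 0.05, 43 were higher, beside 26.1% of all 7748 loci, and 17 were lower, beside 26.4%. The median effect was 0.24 on the log2 scale over the 101 loci and -0.01 over all loci, and 65 of the 101 effects were positive, beside 49.1% of all loci. The median difference was 0.13 over the 2 unstressed pairs of groups and 0.32 over the 2 stressed pairs. At an adjusted p under 0.05 and over 1.4-fold, 26 loci rose, beside 8.35% of all loci, and 13 fell, beside 9.43%. At an unadjusted p under 0.05 there were 48 higher, beside 28.9%, and 20 lower, beside 29.5%. The direction was the same in all 4 pairs of groups that differ only in *Sin3A* dsRNA for 42 of the 43 higher and for all 17 lower loci. The call itself largely fixes that agreement, since it asks for an effect large beside the differences between these pairs. The higher loci had a median mean level of 11.9 FPKM and the lower ones of 3.52 FPKM, with 12 of the 43 and 11 of the 17 under 5 FPKM.

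The loci with the lowest p were all higher with *Sin3A* dsRNA. *AGBE* rose 1.80-fold (log2 0.85, SE 0.04, adjusted p = 0.000109 by limma). *CG6428* was at 17.0 and 18.5 FPKM without and 29.0 and 33.8 FPKM with *Sin3A* dsRNA in unstressed cells, and at 22.6 and 26.0 against 44.4 and 48.7 FPKM in stressed cells, a 1.84-fold rise (log2 0.88, SE 0.04, adjusted p = 0.000109 by limma). *CG4230* was at 14.0 and 12.9 against 26.3 and 22.5 FPKM in unstressed and at 18.3 and 19.1 against 34.8 and 32.9 FPKM in stressed cells, a 1.81-fold rise (log2 0.85, SE 0.05, adjusted p = 0.000133 by limma). In these 3 loci all groups with *Sin3A* dsRNA lay above all groups without it, stressed or not. The gene *puml* rose 2.13-fold (log2 1.09, SE 0.08, adjusted p = 0.000168 by limma) and *Culd* 2.02-fold (log2 1.02, SE 0.08, adjusted p = 0.000186 by limma).

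Of the other enzymes and transporters, *Dph1* rose by 0.59, *Zip99C* by 0.56, *rdog* by 0.53, *Naprt* by 0.42 and *Mettl4* by 0.40 on the log2 scale with *Sin3A* dsRNA, with limma adjusted p between 0.000489 and 0.0057. *Cc2d2a* rose 1.70-fold. *Srx* had an effect of -0.15 on the log2 scale with an adjusted p of 0.17 by limma, and *Acbp6* of 0.57 with an adjusted p of 0.070. The 2L loci *CG43773*, *CG15423* and *CG43774* had log2 effects of 0.51, 0.49 and 0.50 that did not pass, with limma adjusted p of 0.12, 0.12 and 0.080. In *CG43773* and *CG15423*, unstressed *Sin3A* dsRNA cells lay below unstressed GFP dsRNA cells, while both stressed groups with *Sin3A* dsRNA lay above their counterparts.

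The loci that fell with *Sin3A* dsRNA included some with symbols. *CG3568* fell by 1.27 on the log2 scale, from 2.83 and 1.94 to 0.922 and 0.917 FPKM in unstressed and from 4.68 and 2.80 to 1.57 and 1.31 FPKM in stressed cells (limma adjusted p = 0.000778). *cDIP* fell by 1.01 on the log2 scale (SE 0.13, limma adjusted p = 0.000988) and *Srg3* by 0.85 (SE 0.11, limma adjusted p = 0.0013). In *CG3568* the stressed groups with *Sin3A* dsRNA stayed below the unstressed groups without it. In *cDIP* stressed *Sin3A* dsRNA cells did so at 5.09 FPKM. Stressed dual dsRNA cells, at 6.24 FPKM, were practically level with unstressed *lid* dsRNA cells at 6.25 FPKM. *CG4476* and *CG43149*, named above for their strong paraquat ratios, fell by 0.59 and 0.72 on the log2 scale.

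With *lid* dsRNA 10 of the 101 loci were higher at an adjusted p under 0.05, beside 2.48% of all 7748 loci, and 0 were lower, beside 2.07%. At an unadjusted p under 0.05 there were 31 higher, beside 12.6% of all loci, and 2 lower, beside 11.0%. At an adjusted p under 0.05 and over 1.4-fold there were 3 higher, beside 0.439%, and 0 lower, beside 0.490%. The median effect was 0.12 on the log2 scale over the 101 loci and 0.01 over all loci, and 73 of the 101 were positive, beside 52.2% of all loci. The 10 loci were *CG2004*, *CG4630*, *CG16743*, *CG32313*, *CG42268*, *CG14933*, *CG4068*, *Culd*, *Cc2d2a* and *Dph1*. All were higher in 4 of 4 pairs of groups that differ only in *lid* dsRNA, which the call again largely fixes. These calls rest on the full set of 8 values: the count was 5 without the unstressed *Sin3A* dsRNA group and 0 without any 1 of the other 7 groups. The loss was general: over all 7748 loci the higher calls fell from 192 to 46 without the unstressed *Sin3A* dsRNA group. Without any 1 of the other groups they fell to between 1 and 17.

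*CG2004* had the lowest p for *lid* dsRNA. It was at 39.7 and 54.6 FPKM in unstressed GFP and *Sin3A* dsRNA cells against 51.3 and 69.1 FPKM in *lid* and dual dsRNA cells, and with paraquat at 53.9 and 74.0 against 72.7 and 93.7 FPKM, a 1.29-fold rise (log2 0.37, SE 0.03, limma adjusted p = 0.013). *CG16743* was at 40.2 and 42.1 against 58.9 and 64.5 FPKM, and with paraquat at 55.4 and 69.8 against 76.9 and 90.1 FPKM, a 1.42-fold rise (log2 0.50, SE 0.06, limma adjusted p = 0.017). *CG42268* was at 3.68 and 2.79 against 5.77 and 5.80 FPKM, and with paraquat at 5.05 and 5.80 against 8.10 and 9.57 FPKM, a 1.70-fold rise (log2 0.76, SE 0.11, limma adjusted p = 0.026). *CG2004* thus moved by like amounts with all 3 factors, whereas *CG42268* had a *Sin3A* dsRNA effect of 0.01.

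*CG4630* rose 1.36-fold and *CG32313* 1.38-fold with *lid* dsRNA, with limma adjusted p of 0.017 and 0.022. *CG14933* combined opposite effects: it was at 6.63 FPKM in GFP, 2.89 in *Sin3A*, 14.1 in *lid* and 4.20 in dual dsRNA cells, and with paraquat at 11.3, 6.73, 24.1 and 10.9 FPKM. It was the highest of all groups in stressed *lid* dsRNA cells, and its listed span overlaps those of *Mal-B2* and other genes. Both dsRNA effects passed for 9 of the 101 loci, beside 3.61% of all loci, and neither passed for 40, beside 46.6%.

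**Figure D5:**
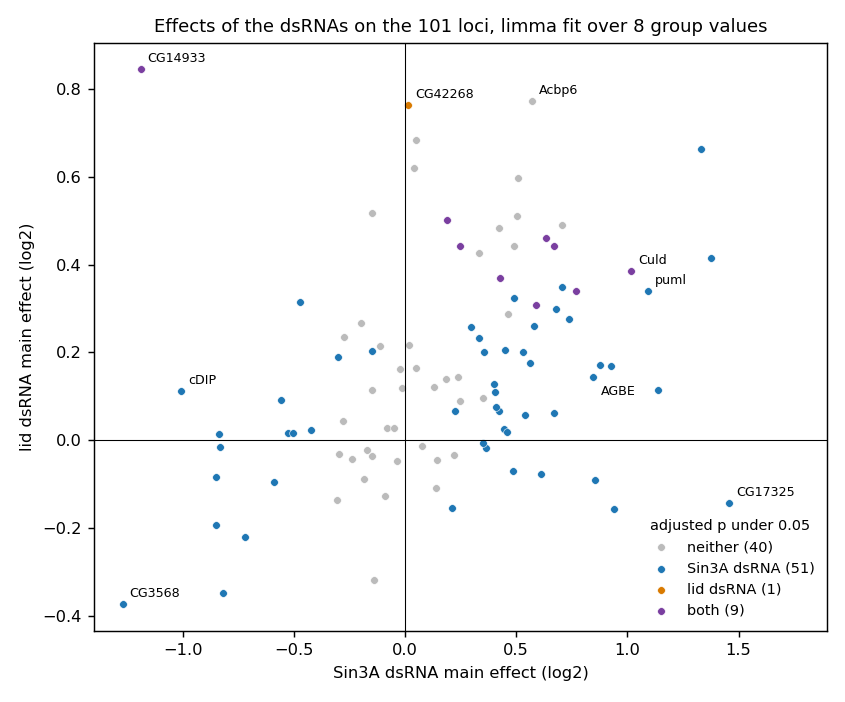
Main effects of *Sin3A* dsRNA (horizontal axis) and *lid* dsRNA (vertical axis) on the 101 loci, in log2 units, from the limma fit over the 8 group values, coloured by which effect had an adjusted p under 0.05. Blue points stand on both sides of 0, with more on the right, while all loci that passed for *lid* dsRNA (orange and purple) lie above 0.

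The same loci were compared directly with GFP dsRNA cells, as a description that shares its control values with the rule. In unstressed cells 21 were over 1.4-fold higher with *Sin3A* dsRNA (10.3% of all loci) and 21 lower (12.6%). With *lid* dsRNA 8 were higher (2.26%) and 4 lower (4.79%), and with dual dsRNA 37 were higher (13.0%) and 15 lower (14.2%). Before stress the median difference was thus small with *Sin3A* dsRNA, 0.01 on the log2 scale, and larger with dual dsRNA, 0.30.

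In stressed cells 37 of the 101 loci were over 1.4-fold higher with *Sin3A* dsRNA than with GFP dsRNA (11.3% of all loci) and 13 lower (12.4%). With *lid* dsRNA 12 were higher (2.68%) and 3 lower (4.22%), and with dual dsRNA 51 were higher (13.4%) and 12 lower (13.7%). The median differences were 0.30, 0.12 and 0.51 on the log2 scale. The median level over GFP dsRNA cells was thus highest with both dsRNAs, before stress as well as under it. From unstressed to stressed cells the median went from 0.01 to 0.30 with *Sin3A* dsRNA, the largest gain. It went from 0.05 to 0.12 with *lid* dsRNA and from 0.30 to 0.51 with both. In each locus this gain is the same quantity as the difference in paraquat ratios that the rule used.

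The 101 loci were spread over the genome. There were 19 on 2L, 19 on 2R, 22 on 3L, 27 on 3R, 13 on X, 1 in the X heterochromatin and 0 on chromosome 4. CG-numbered loci at 1 FPKM or more had 17.6% of their number on X, where 12.9% of the 101 lay. Besides the 2L genes, neighbouring pairs were *AGBE* and *CG33137*, 598 bp apart on 2R, *Cc2d2a* and *CG34194*, 79 bp apart on 2R, and *CG17224* and *CG17264*, 199 bp apart on 2L. *Zip99C* and *CG31038* lay 8163 bp apart on 3R with 4 loci between them. Neighbours did not always move alike with the dsRNAs: *CG17224* rose with *Sin3A* dsRNA, while *CG17264* was at 16.4 and 18.4 FPKM without and 12.9 and 13.8 FPKM with it in unstressed cells.

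The gene models of these loci were short. All 101 could be matched to the current annotation, 100 of them as protein-coding genes. Their coding length had a median of 902 bp, beside 1200 bp for 3310 protein-coding CG-numbered loci at 1 FPKM or more, and 20 of the 100 had a single exon, beside 11.2% of the latter. These shares were not tested. The listed spans of 42 of the 101 overlapped another locus in the tables, and 36 overlapped one at 1 FPKM or more. A listed span can be far longer than the gene: *CG3568* is listed from 4281828 to 4505418 on X, while its dm6 gene length is 1868 bp. An overlap of spans is thus not always an overlap of genes, and these counts have no share over all loci beside them. Where genes themselves overlap, reads from opposite strands cannot be told apart, because the library kit does not mark the strand. In 2 loci the locus with the overlapping span itself met the paraquat rule. These were *CG5835* with *CR44107* and *CG6424* with *Uhg1*, the host of a cluster of small nucleolar RNAs.

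Lists of genes with known roles in stress were set beside all 7748 loci, of which 2.81% met the same rule and 2.70% the opposite one. Most lists are short, so few or no genes meeting the rule is not read as a departure from these shares. Among glutathione S-transferases, which conjugate electrophiles to glutathione, 7 of 25 genes at 1 FPKM or more met it and 0 met the opposite rule. *GstD2* was at 7.42 FPKM without and 12.5 FPKM with paraquat in GFP dsRNA cells and had ratios from 1.68 to 2.80. *GstE9* and *GstE8* followed, with lowest ratios of 1.62 and 1.55. Of 34 cytochrome P450 genes, 2 met the rule, *Cyp4p1* and *Cyp4d8*, and *Cyp12e1* met the opposite one. Of 3 genes in the metallothionein list at 1 FPKM or more, *MtnA*, which binds metal ions, met it, with a lowest ratio of 1.97, and of 9 genes of the DNA damage response *Gadd45* did, with a lowest ratio of 2.74. None of 12 antioxidant enzymes, 4 genes of the *cnc* and *Keap1* pathway, 6 genes of FOXO and nutrient signalling and 6 genes of the integrated stress response met the rule in either direction. None of 11 heat shock genes did so either, but their median paraquat ratio was 0.167 in GFP, 0.371 in *Sin3A*, 0.390 in *lid* and 1.51 in dual dsRNA cells.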

How the data were processed

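RNA of S2 cells was sequenced in 24 samples, 3 in each of 8 groups that their titles name by dsRNA and paraquat. The authors purified mRNA, prepared libraries with a kit that does not mark strand, aligned reads to dm3 with Bowtie and TopHat and derived levels with Cufflinks and Cuffdiff (versions not given in the sources used here). The FPKM values were deposited by the authors in 7 tables, with 1 value per locus and group. The tables also hold the authors' own log2 ratios, test statistics, p-values and q-values, which were not used.

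The 101 loci, the gene lists and the tests were chosen with earlier results of these data known. Ratios used a pseudocount of 0.1 FPKM. The limma fit (version 3.58.1, R 4.3.3, trended prior) covered 7748 loci with a mean of at least 1 FPKM. Tables were handled in Python 3.11.15 with pandas 2.3.3.

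The genes named were the 10 with the highest lowest paraquat ratio, the 5 most abundant, the 5 with the widest spread of ratios, the 5 with the lowest p for each dsRNA, the 3 on either side of the threshold and up to 3 per gene list. Genes with symbols of their own or metabolic annotation, neighbours, overlapping genes, the 10 called with *lid* dsRNA and the loci that fell with *Sin3A* dsRNA were also named, after their values had been seen. Symbols and gene lengths came from RefSeq and Ensembl annotations of dm6, matched by name. Coordinates are those of the tables. Promoter motifs were not analysed here.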

Additional observations from a re-analysis of the deposited data

Results flagged for a closer look

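In 6 of the 101 loci the effect of *Sin3A* dsRNA had opposite signs without and with paraquat, in both pairs of groups that differ only in *Sin3A* dsRNA, as in 4.30% of all 7748 loci. The values below are the mean log2 effect in stressed cells minus that in unstressed cells, and the difference was not tested, since each group has 1 value. It was 1.03 for *CG9568*, where *Sin3A* dsRNA changed the level by -0.27 and -0.68 in unstressed and by 0.47 and 0.64 in stressed cells. It was 0.68 for *Srg2* (*CG42825*), with -0.56 and -0.35 in unstressed and 0.24 and 0.22 in stressed cells. The difference was 0.53 for *CG31174*, 0.48 for *CG11700*, 0.43 for *CG13482* and 0.34 for *CG14324*, in each from lower to higher.

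The effect of *lid* dsRNA changed sign in the same way in 8 of the 101 loci, beside 19.2% of all loci, and again the difference was not tested. It was positive, from lower to higher, for *CG16998* at 0.42, *CG4269* at 0.33, *CG14324* at 0.24, *CG32944* at 0.24 and *CG42588* at 0.18. It was negative, from higher to lower, for *CG7142* at -0.35, *CG17264* at -0.20 and *CG14798* at -0.20. Some of these signs rest on values near 0: without paraquat the *lid* dsRNA differences of *CG16998* were -0.011 and -0.0083 on the log2 scale, and 1 of those of *CG42588* was -0.0090.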

How the results depend on the processing

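No paired analysis was possible because the deposited values combine the 3 replicates of a group, and for the same reason no single replicate could be left out; single groups were left out instead. The rule gave 52 loci at a fold of 1.4, 2 at a fold of 2 and 57 with a mean of at least 5 FPKM, and between 111 and 163 when the pair of 1 RNAi background was ignored, the most without GFP dsRNA cells. Without a pseudocount, with 1 FPKM, with no filter and with centred ratios it gave 105, 69, 138 and 109. With *Sin3A* dsRNA, the 43 higher loci became 26 and the 17 lower ones 13 when a change over 1.4-fold was also asked. Leaving out 1 group gave 35 to 44 higher and 13 to 18 lower, beside 1567 to 1935 higher and 1534 to 1962 lower of all 7748 loci. A mean of at least 5 FPKM left 31 higher and 6 lower among 57 loci, beside 1910 and 1704 of all 6681. Without the loci whose listed span overlaps another at 1 FPKM or more, 30 were higher and 7 lower among 65. That alternative was chosen after seeing the data. With *lid* dsRNA the 10 higher loci became 3 over 1.4-fold, beside 0.439% of all loci. They became 6 with a mean filter of 0.1 FPKM, beside 173 of 9744 loci, and 7 with a pseudocount of 1 FPKM, beside 183 of 7748. Without 1 group they became 0 to 5, beside 1 to 46 of 7748. The 10 genes named for their p kept the direction of that effect in every fit run. All 5 named for *Sin3A* dsRNA stayed under an adjusted p of 0.05, while each of the 5 named for *lid* dsRNA exceeded 0.05 in 7 of 8 fits without 1 group, with limma adjusted p between 0.0525 and 0.125. Low FPKM values and the lack of replicate values limit all of these counts.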
